A study of Homo sapiens with 17 samples.

Results

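The clustered protocadherin genes are a tandem array of cell adhesion genes on chromosome 5. They were taken by symbol (PCDHA, PCDHAC, PCDHB, PCDHGA, PCDHGB or PCDHGC with a number) from a RefSeq gene table of GRCh38.p14, and 54 symbols matched. Of these, 53 are protein-coding, with 15 in the alpha, 16 in the beta and 22 in the gamma family, out of 19974 protein-coding genes on chromosomes 1 to 22 and X. The remaining match, PCDHA14, is annotated as a pseudogene and is described apart. The array runs over 726.8 kb, chr5:140786140-141512975, from the start of PCDHA1 to the shared end of the gamma genes.

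The libraries are chromatin immunoprecipitations with sequencing (ChIP-seq) from A549, a cell line established from a human lung carcinoma. In A-Fos cells, a derivative into which A-Fos had been integrated by piggyBac transposition, FOXA1 and FOSL2 (antibody named Fra2 in the labels) were profiled with doxycycline at 1 µg/mL for 48 h (Dox) and without it (noDox), with 2 libraries of each. A-Fos is a dominant-negative Fos that pairs with Jun proteins and keeps them from DNA, and it is expressed when doxycycline is added. In unmodified (WT), untreated cells, FOXA1, H3K9me3 and H3K27me3 were profiled with 2 libraries each, which the titles call biological replicates. The labels do not say whether the A-Fos line is a clone or a pool, and Dox-treated cells without A-Fos were not analysed here, so A-Fos and doxycycline cannot be told apart.

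Clustered protocadherins are cadherin-like surface proteins best known from neurons, where each cell uses a few members and so gains a surface identity. In the alpha and gamma families each variable gene has its own promoter and first exon, which is spliced to constant exons at the far end of the family. Beta genes are single-exon genes with promoters of their own. The C-type members, at the end of the alpha and gamma families, are known for steadier expression across neurons. Cells that do not use the array are known to hold it under DNA methylation and H3K9me3, a mark of constitutive heterochromatin laid down by enzymes such as SETDB1, while H3K27me3 is the mark of Polycomb repression.

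Most promoters of the array held the letters CGCT and, apart from those of the C-type members, had a low GC content. The 250 bases before the start were in the RefSeq promoter table of GRCh38.p14 for 47 of the 53 members, all on the plus strand. Shown first, because they are the member of each family with the highest H3K9me3 cover around its start and the C-type member with none, are PCDHA2 (chr5:140794602-140794851), PCDHB15 (chr5:141245145-141245394), PCDHGA6 (chr5:141373641-141373890) and PCDHAC2 (chr5:140966226-140966475). Capitals mark CGCT on either strand (AGCG on the other), the letters at the core of the conserved element of protocadherin promoters. So short a run is common, and a marked copy alone does not show that the element is there.
PCDHA2: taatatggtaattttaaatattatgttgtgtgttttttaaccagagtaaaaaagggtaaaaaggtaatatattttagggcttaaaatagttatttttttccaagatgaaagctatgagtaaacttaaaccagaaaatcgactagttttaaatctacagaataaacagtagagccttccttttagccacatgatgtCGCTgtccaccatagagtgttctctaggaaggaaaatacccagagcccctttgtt
PCDHB15: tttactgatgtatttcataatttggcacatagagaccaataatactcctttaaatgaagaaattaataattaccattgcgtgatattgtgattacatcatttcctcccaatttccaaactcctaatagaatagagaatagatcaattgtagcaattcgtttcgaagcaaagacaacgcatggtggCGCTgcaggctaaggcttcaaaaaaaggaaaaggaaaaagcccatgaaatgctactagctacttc
PCDHGA6: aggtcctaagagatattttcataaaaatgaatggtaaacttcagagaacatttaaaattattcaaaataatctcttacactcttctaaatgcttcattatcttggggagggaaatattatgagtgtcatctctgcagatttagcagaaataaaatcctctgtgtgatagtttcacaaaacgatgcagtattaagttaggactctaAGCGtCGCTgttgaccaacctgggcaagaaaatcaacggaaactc
PCDHAC2: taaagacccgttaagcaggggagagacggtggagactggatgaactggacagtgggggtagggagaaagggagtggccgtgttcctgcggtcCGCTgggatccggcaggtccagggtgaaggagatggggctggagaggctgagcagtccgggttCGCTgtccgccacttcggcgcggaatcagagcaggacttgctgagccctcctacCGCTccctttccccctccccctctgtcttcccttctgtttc

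CGCT was found on one strand or the other in 45 of the 47 member promoters (95.7%), against 64.3% of the 27305 promoters of the table. The letters around it differed by family. For each family the run of 7 letters with CGCT in it that most of its promoters held was taken, so these runs describe the members they came from. Among the variable alpha promoters it was TGTCGCT, in 10 of 11, and 1.31% of the table held it. Among the beta promoters other than PCDHB1 it was TGGCGCT, in 12 of 13, and 3.14% of the table held it. Among the variable gamma promoters it was CGCTGTT, in 13 of 18, and 1.81% of the table held it. All 3 were searched on both strands and overlap CGCT. PCDHA2, PCDHB15 and PCDHGA6 hold their family's run in the stretches above. Of the 4 C-type promoters, 1 held the beta run (PCDHGC3) and none held the alpha or the gamma run. PCDHB1 held none of the 3 runs.

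Median GC content of these 250 bases was 37.6% over the 47 members, against 58% over the table. The alpha promoters had a median of 34.8% (31.6 to 40%), the beta promoters 39.2% (30.8 to 44.8%) and the gamma promoters 39.4% (30 to 48.8%). The 4 C-type promoters with an entry had 61.2% (57.6 to 63.2%), so their range did not overlap that of the variable members. PCDHB1, which lies apart from the other beta genes, had 42.8%.

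In WT cells H3K9me3 peaks covered much of the array and H3K27me3 peaks little of it. H3K9me3 covered 41.6% and 40.5% of the array in libraries 1 and 2, against 2.28% and 4.55% for H3K27me3. The means were 41.0 ± 0.792% and 3.41 ± 1.61% (SD, n = 2 each), a difference of 37.6 percentage points, with no overlap between the marks. An exact two-sided permutation test gave p = 0.333, the smallest p that 2 libraries against 2 allow. Over the length of all protein-coding genes the order was the other way in both pairs of libraries, with 5.11% and 4.86% under H3K9me3 and 5.69% and 7.69% under H3K27me3.

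The peaks in the array also stood high in their own lists for H3K9me3. The lists give each peak a fold enrichment over background, the authors' own value. Folds of different lists are not on one scale (the median of a FOXA1 list was 4.48 and 4.75 in A-Fos Dox cells, 5.74 and 6.34 in A-Fos noDox cells, and 5.31 and 5.19 in WT cells), so each is read by its percentile within its own list. H3K9me3 had 277 and 218 peaks in the array, or 381 and 300 per Mb, against 76.3 and 51.3 per Mb of protein-coding gene. Their median rank was the 80.7th and 78.4th percentile of enrichment, and the strongest stood at percentile 99.92 and 99.96, with 10.7-fold and 13.01-fold enrichment. H3K27me3 had 26 and 53 peaks there, at a median percentile of 38.6 and 44.9. Peak lists hold no read numbers, so depth is unknown. Partial cover can come from part of the cells, part of the gene copies or gaps between peaks, which these lists cannot tell apart.

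**Figure D1:**
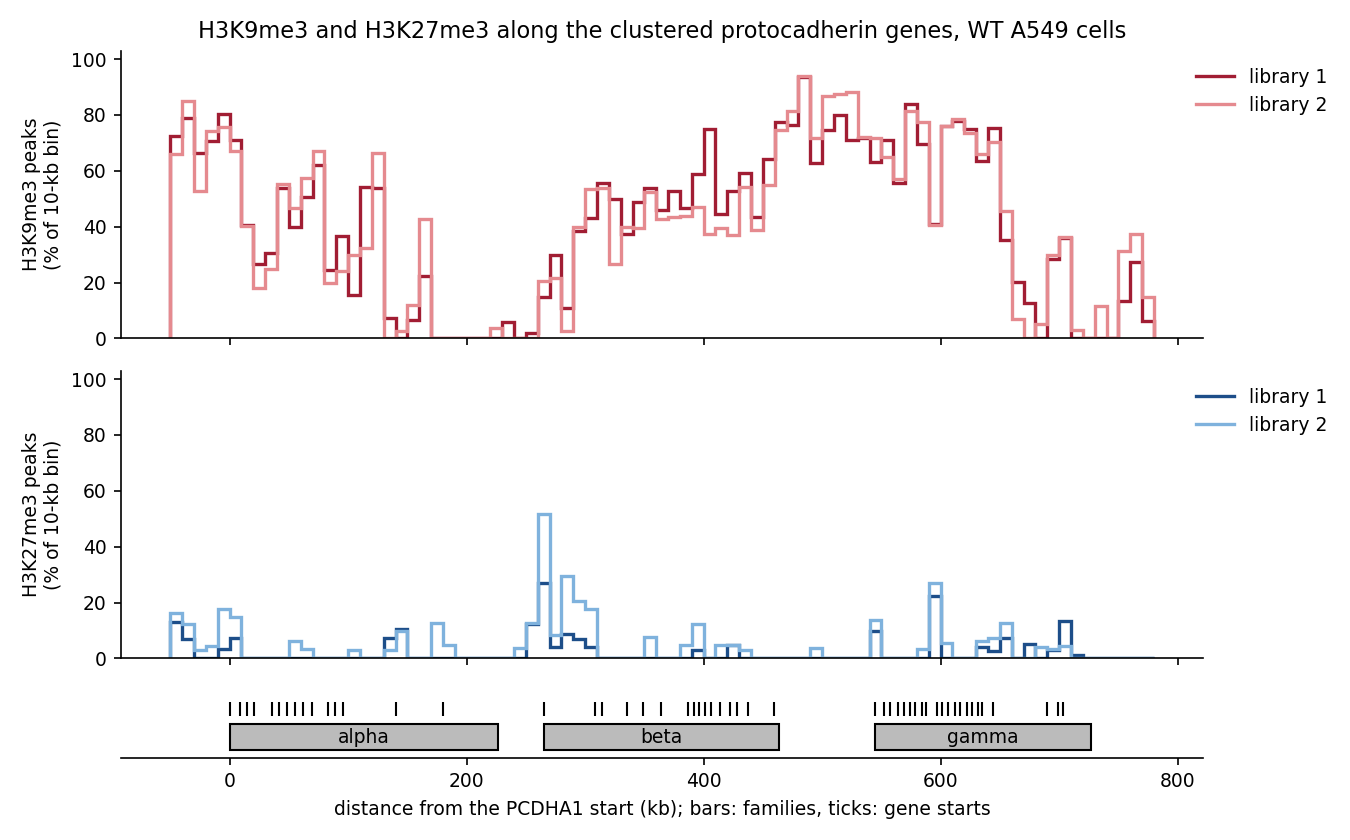
Percentage of each 10-kb bin covered by H3K9me3 peaks (top) and H3K27me3 peaks (middle) in 2 libraries of WT A549 cells, against distance in kb from the PCDHA1 start, with families as bars and protein-coding gene starts as ticks (bottom). H3K9me3 is high over the start of the alpha genes, the beta genes and the variable gamma genes and near 0 over the end of the alpha family, while H3K27me3 is highest at PCDHB1.

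The cover was not even along the array. The block of 13 variable alpha genes was covered by H3K9me3 at 44.1% and 42.5% and the next 40.2 kb at 32.7% and 32.0%. From 1 kb before PCDHAC1 to the end of the alpha family, 87.1 kb that hold both alpha C-type starts and the constant exons, it covered 3.33% and 7.05%. The gap before PCDHB1 had 2.53% and 0%. Cover was 53.1% and 44.2% from PCDHB2 to PCDHB15, 75.4% and 82.1% between PCDHB15 and PCDHGA1, and 68.7% and 69.8% from PCDHGA1 to 3 kb past the start of PCDHGA12. After that it was 18.5% and 16.9% over the last 79.5 kb, which hold the gamma C-type genes and constant exons.

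All alpha genes share 1 end and all gamma genes another, so their intervals are nested and their whole-gene values repeat the same bases. By whole interval, H3K9me3 covered at least 50% of 10 of the 53 members in both libraries, against 2.19% of all protein-coding genes, and the 10 were all beta genes. H3K27me3 did so in 0 of 53, against 5.04% of all. Members are therefore compared below by a start stretch, 1 kb before to 3 kb after the start, which holds the promoter and most of the first exon. There H3K9me3 covered at least 50% in both libraries in 34 of 53 members (5 alpha, 10 beta and 19 gamma), against 1.95% of the 15819 protein-coding genes with a known strand. The count was 43 in library 1 and 36 in library 2. Some cover in both libraries was found in 51 of 53 members, against 7.57%. The median start stretch was covered at 66.0% and 61.4%, against 0% and 0% over all genes.

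H3K9me3 cover rose at the starts but did not begin there. From -4000 to -3500 bp relative to the start, mean cover was 30.1% and 27.2% for variable alpha genes. It was 59.2% and 55.1% for beta genes without PCDHB1, and 83.3% and 79.8% for variable gamma genes. Around the 13 variable alpha starts, mean cover was 12.5% and 29.5% in the 500 bp before the start and 80.7% and 68.2% in the 500 bp after it. It was 88.3% and 93.4% at 1 to 1.5 kb and 4.32% and 12.7% at 2.5 to 3 kb past the start. Around the 19 gamma starts it was 32.0% and 48.7% before the start, 81.1% and 89.3% just after it and 97.1% and 100% at 1 to 1.5 kb. Around the 15 clustered beta starts (all but PCDHB1) it was 40.5% and 47.6% before, 78.9% and 77.7% after, and 89.8% and 96.2% at 1 to 1.5 kb. In both libraries and all 3 families, cover was thus higher just inside the gene than just before it. The start stretches together had more cover than the sequence between them, with 56.9% and 51.7% against 30.5% and 32.8% in the alpha block, 69.6% and 54.4% against 43.0% and 38.0% in the beta block, and 76.2% and 76.1% against 49.7% and 53.5% in the gamma block.

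**Figure D2:**
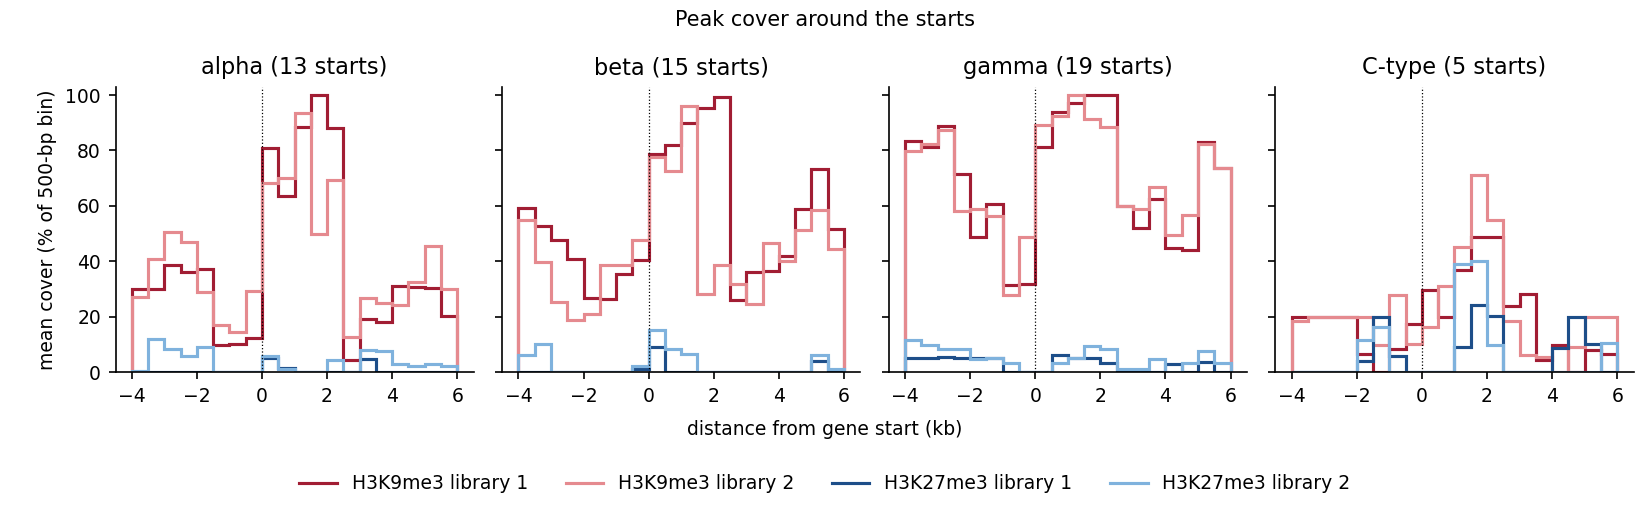
Mean percentage of 500-bp bins covered by H3K9me3 and H3K27me3 peaks in each WT library, from 4 kb before to 6 kb after the start, for variable alpha, beta (without PCDHB1), gamma and C-type members. H3K9me3 steps up at the start and falls off after about 2.5 kb in the 3 variable groups, and library 2 is lower than library 1 at 1.5 to 2.5 kb in the alpha and beta groups.

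The libraries differed inside the beta genes. At 1.5 to 2 kb past the start mean cover was 95.3% in library 1 and 28.3% in library 2, and at 2 to 2.5 kb it was 99.5% and 38.7%. PCDHB9 had the widest gap of any member, with 82.7% of its start stretch covered in library 1 and 22.6% in library 2. Start stretches were over 20 points apart in 7 of 53 members, 5 of them beta. First exons of a family are close in sequence, reads that match several of them may be placed in different ways, and how the authors placed them is not given in the sources used here. Its part in these values was not tested.

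**Figure D3:**
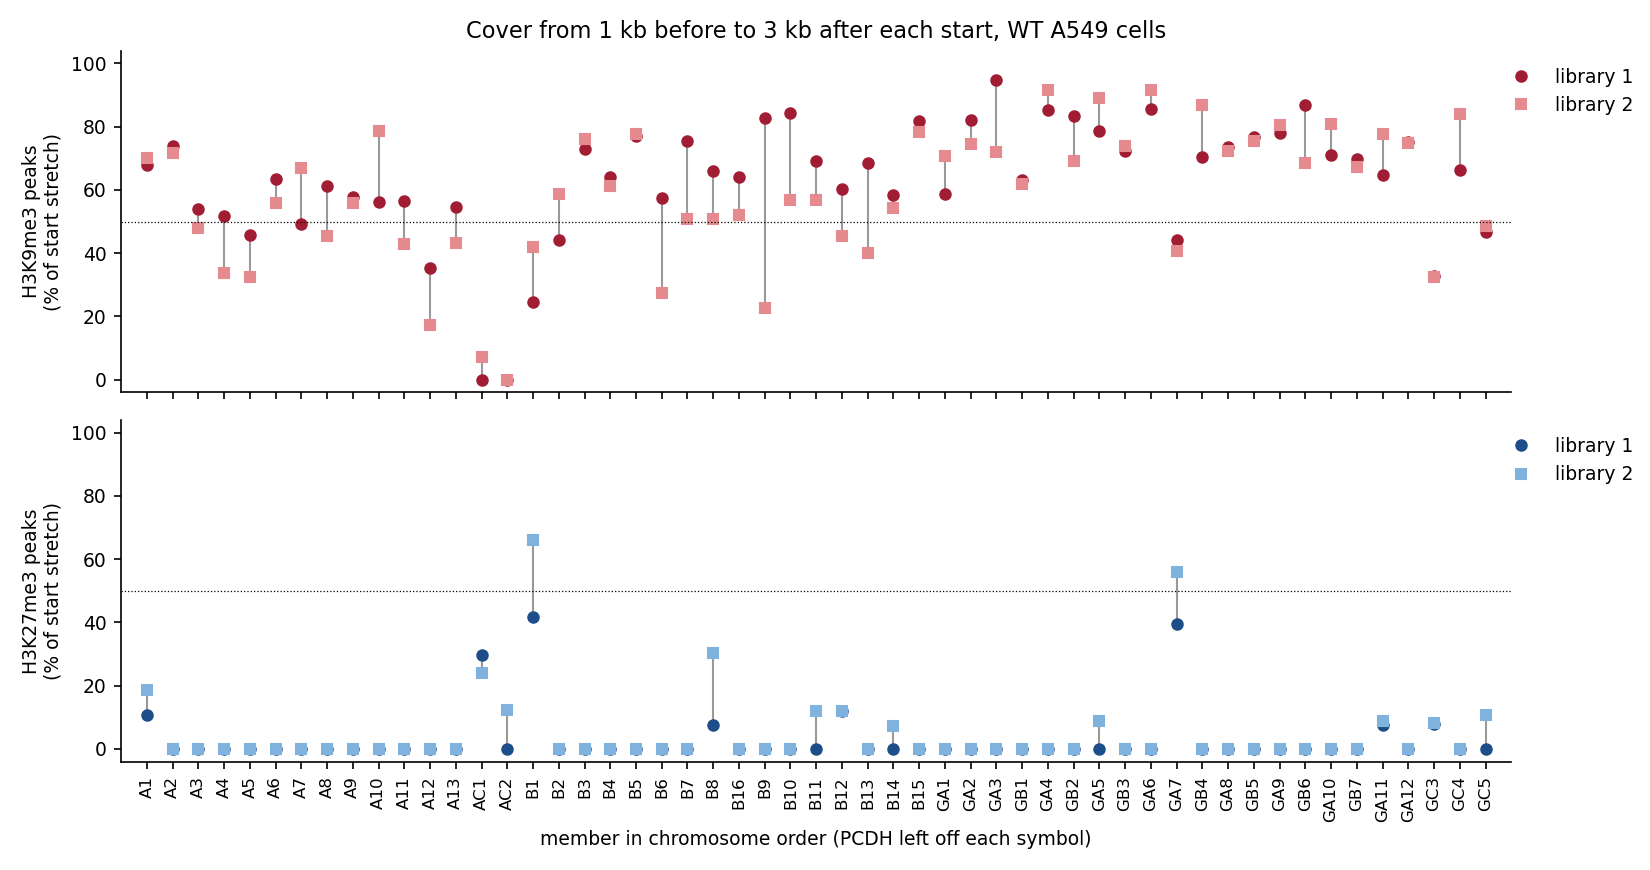
Percentage of the start stretch (1 kb before to 3 kb after the start) covered by H3K9me3 (top) and H3K27me3 (bottom) peaks for the 53 protein-coding members in chromosome order. Circles are library 1, squares library 2, grey lines join them, and the dotted line is 50%. Most variable members lie above the line for H3K9me3, AC1 and AC2 lie near 0, and B1 and GA7 are the members with the most H3K27me3.

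Among the alpha genes, the start stretches most covered by H3K9me3 were those of PCDHA2 at 74.0% and 71.7%, PCDHA1 at 67.8% and 70.0% and PCDHA10 at 56.1% and 78.6%. The lowest variable alpha gene was PCDHA12 with 35.3% and 17.2%. The libraries of PCDHA2 and PCDHA12 did not overlap. The pseudogene PCDHA14, which lies between PCDHA10 and PCDHA11, was covered at 94.5% and 100% of its length.

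Beta genes with the most cover were PCDHB15 at 81.8% and 78.3%, PCDHB5 at 77.0% and 77.6% and PCDHB3 at 73.0% and 76.0%. The least covered were PCDHB1 at 24.6% and 41.9%, PCDHB6 at 57.4% and 27.5% and PCDHB2 at 44.2% and 58.6%. PCDHB1 lay below PCDHB2 in both libraries, and PCDHB6 overlapped both of them. The beta pseudogenes carried the mark too, with 69.9% and 63.6% of PCDHB17P, 82.5% and 69.1% of PCDHB18P and 74.2% and 59.7% of PCDHB19P covered.

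The gamma family held the highest median cover, 72.9% and 74.1%. Its variable genes spanned 44.3 to 94.7% in library 1 and 40.7 to 91.7% in library 2. PCDHGA6 had 85.6% and 91.6%, PCDHGA4 85.2% and 91.7% and PCDHGA5 78.7% and 89.1%, values that overlap each other. Of its variable genes PCDHGA7 was the exception, at 44.3% and 40.7%, below every other variable gamma gene in both libraries. Its start stretch also carried H3K27me3, over 39.6% and 56.0%. The pseudogenes PCDHGB8P and PCDHGB9P had 100% and 100%, and 84.1% and 88.2%, of their length under H3K9me3.

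The 5 C-type members were the least alike. PCDHAC2 had no H3K9me3 in its start stretch in either library, and PCDHAC1 had 0% and 7.05%. PCDHGC3 had 32.9% and 32.4%, PCDHGC5 46.8% and 48.6% and PCDHGC4 66.2% and 84.1%. By cover PCDHGC4 therefore lay within the range of the variable gamma genes, but by enrichment it lay below them. Its strongest H3K9me3 peak there stood at the 84.7th and 16.0th percentile. The lowest variable gamma genes stood at 93.6 in library 1 (PCDHGA7) and 92.8 in library 2 (PCDHGA2). The alpha C-type genes lay below every variable alpha gene by cover in both libraries.

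H3K27me3 was found around few starts. Its cover of the start stretch reached 50% in both libraries in 0 of 53 members, against 8.26% of all genes with a strand, and 8 of 53 had some in both, against 22.3%. PCDHB1 had the most, with 41.6% and 66.1%. PCDHGA7 followed with 39.6% and 56.0%, which overlaps PCDHB1, and PCDHAC1 with 29.6% and 24.1%. The other 5 were PCDHA1 (10.6% and 18.5%), PCDHB8 (7.42% and 30.3%), PCDHB12 (11.85% and 12.02%), PCDHGA11 (7.47% and 8.75%) and PCDHGC3 (7.72% and 8.20%). PCDHAC2 had 0% and 12.4%. By library 2 alone PCDHB1 and PCDHGA7 pass 50%, so that count is 2 without library 1. PCDHA2, PCDHB3 and PCDHGA2 were among the 40 members with none in either library. That state was found in 70.7% of all genes with a strand, so it is common and does not set the members apart.

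**Figure D4:**
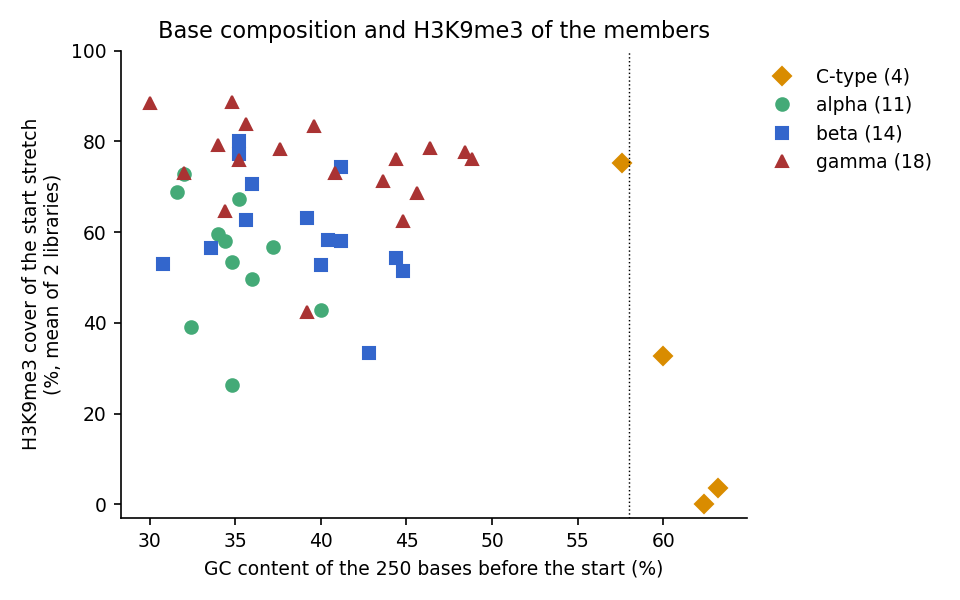
H3K9me3 cover of the start stretch (mean of 2 WT libraries, %) against GC content of the 250 bases before the start (%), for the 47 members with a promoter entry, each point 1 gene. PCDHB1 is drawn with the beta genes, and the dotted line is the median GC content of the 27305 promoters of the table. Variable members lie at 30 to 48.8% GC and C-type members at 57.6 to 63.2%, and the C-type points spread from 0% to 75.2% cover.

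The genes next to the members differed. SLC25A2, a mitochondrial ornithine carrier gene between the beta and gamma families, lay wholly under H3K9me3 (100% and 100%). TAF7, which encodes a subunit of the general transcription factor TFIID in the same gap, had 76.0% and 72.9%. DIAPH1, a formin gene just past the gamma family, had 4.53% and 9.15%. The 50 kb before the array had 73.8% and 70.7% and the 50 kb after it 8.31% and 16.3%, so the mark ran past the alpha start and thinned at the gamma end. None of SLC25A2, TAF7 and DIAPH1 had H3K27me3 in either library.

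Protocadherin genes outside the array, each with its own promoter elsewhere, were read by the same thresholds. Of 12 such genes, 0 had H3K9me3 over 50% of the gene in both libraries, against 2.19% of all protein-coding genes. In so few genes a count of 0 cannot be set apart from that share. Some cover of the gene in both libraries was found in 6 for H3K9me3 and in 9 for H3K27me3. H3K27me3 passed 50% in 2, PCDH1 (63.6% and 64.2%) and PCDH20 (61.6% and 67.2%), against 5.04%. By start stretch, 5 of the 10 with a strand passed 50% H3K27me3 in both libraries, against 8.26% of all genes with a strand. Among them were PCDH1 (56.8% and 63.8%), PCDH11X (50.9% and 66.8%), PCDH15 (62.6% and 71.0%) and PCDH17 (55.6% and 85.5%). PCDH1 lies 340.1 kb past the array on the same chromosome. PCDH8, PCDH9, PCDH12 and PCDH18 did not pass in either library, though PCDH8 had H3K27me3 over 19.5% and 28.9% of the gene. The median start stretch of these 10 was covered by H3K27me3 at 39.6% and 64.7%, against 0% and 0% for the members and 0% and 0% for all genes.

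Of 19 genes chosen as possible regulators of the array, 1 had H3K9me3 over at least 50% of its length in both libraries. The H3K27me3 count was 0. Over all protein-coding genes the shares were 2.19% and 5.04%, and counts this small cannot be set apart from them. The 1 gene was ZNF274, a zinc finger protein known to recruit SETDB1, at 96.7% and 96.9%. CTCF and SMC3, for the boundary factor and a cohesin subunit that loop the promoters to their enhancers, had 0% of either mark. SETDB1 had 5.26% and 9.64% and SMCHD1, a repressor of the array in mouse, 0.560% and 1.29% under H3K9me3. The 5 classical cadherin genes had 0 passing for either mark, with CDH1, the epithelial E-cadherin gene, at 5.38% and 6.47% H3K9me3.

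The lists cannot check the label of lung carcinoma cells, since they hold no expression values, and KRT18 and EPCAM of the lung list and ENO2 of the neuron list alike had neither mark. Of 7 lung epithelial markers, 0 had H3K9me3 and 1 had H3K27me3 over 50% of the gene in both libraries, NKX2-1 at 57.6% and 78.1%, while KRT8 had H3K9me3 over 4.05% and 4.51%. Of 7 neuron markers 0 passed by gene for either mark, and 3 of 6 passed for H3K27me3 by start stretch, SYN1 at 58.4% and 65.9%, RBFOX3 at 68.1% and 81.0% and SYP at 55.6% and 59.5%. TUBB3 had no H3K27me3. Over all protein-coding genes, 2.19% passed for H3K9me3 and 5.04% for H3K27me3 by gene. By start stretch, 8.26% of those with a strand passed for H3K27me3.

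FOXA1 is a forkhead protein that can bind closed chromatin and is active in airway, liver and other endoderm-derived epithelia. In WT cells its lists held 11 and 19 peaks in the array and the 50 kb on either side, and the libraries shared 9 regions, of which 8 lay in the array. None of the 9 overlapped H3K27me3 common to both libraries, against 3.23% of 35739 such regions genome-wide. H3K9me3 common to both libraries was overlapped by 1 region, against 1.95%. That count was 3 without FOXA1 library 1 or H3K9me3 library 1, and 2 without either library 2. The H3K9me3 covers of the array, 41.6% and 40.5%, are of single libraries and not of stretches common to both.

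The region that overlapped H3K9me3 was at the start of PCDHGA2, chr5:141338533-141338874, and the mark covered 50.6% and 28.7% of it in libraries 1 and 2. Counted by whether the summit lay inside the mark, 0 regions overlapped it. The PCDHGA2 region had 6.26-fold and 5.52-fold enrichment (62.1st and 54.7th percentile). Its summits lay 90 and 81 bp before the start in libraries 1 and 2. The promoters of PCDHGA2 (chr5:141338510-141338759) and of PCDHGA1 (chr5:141330264-141330513), where library 2 had a summit 82 bp before the start at 5.17-fold, are shown because FOXA1 peaks lie over them. Capitals mark CGCT or AGCG and the forkhead motif TGTTTGC or its other strand, GCAAACA.
PCDHGA2: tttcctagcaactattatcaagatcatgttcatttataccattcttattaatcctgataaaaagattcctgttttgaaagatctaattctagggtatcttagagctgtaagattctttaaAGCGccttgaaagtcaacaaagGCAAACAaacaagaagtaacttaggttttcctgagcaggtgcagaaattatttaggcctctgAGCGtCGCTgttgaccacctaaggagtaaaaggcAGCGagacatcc
PCDHGA1: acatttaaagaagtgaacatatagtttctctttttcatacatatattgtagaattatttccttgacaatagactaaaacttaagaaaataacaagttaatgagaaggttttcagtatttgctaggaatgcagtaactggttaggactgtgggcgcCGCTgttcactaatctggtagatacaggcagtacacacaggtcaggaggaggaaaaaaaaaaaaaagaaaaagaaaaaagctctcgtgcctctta

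The forkhead letters TGTTTGC were found 108 bp before the start of PCDHGA2, 18 and 27 bp from the 2 summits, and in no other member promoter of the 47 (2.13%), against 3.19% of all promoters. TGTTTAC was in 0 of 47, against 2.98%. The AP-1 letters TGANTCA were in 1 of 47, PCDHGA11, against 6.60%. PCDHGA1, with a peak in 1 library, has neither forkhead run in this window. The same holds for PCDHA4, where peaks of both libraries reach into the window.

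FOXA1 peaks near member starts were at about the background share in WT library 1 and below it in library 2. A peak came within 500 bp of the start of 3 of 53 members in WT library 1, against 6.99% of all genes with a strand, and of 7 of 53 in library 2, against 24.0%. PCDHA3, PCDHA4 and PCDHGA2 were found in both libraries. The PCDHA3 peak was the strongest, at 13.1-fold and 15.5-fold (86.6th and 85.5th percentile), with summits 640 and 638 bp past the start, in the stretch where H3K9me3 peaks of the 2 libraries covered 53.7% and 19.1% of the region without meeting. The PCDHA4 peak was 5.61-fold and 6.38-fold, with summits 340 and 335 bp before the start. PCDHAC2, PCDHB11, PCDHGA1 and PCDHGB1 had a peak in library 2 alone.

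The end of the alpha family held the largest group of FOXA1 regions. Over all 6 FOXA1 lists, peaks merged into 23 regions, 10 of them called in at least 2 lists, and 5 of the 23 lay in the PCDHACT record, 33.4 kb of alpha constant sequence with 0% and 1.14% H3K9me3. The region chr5:140992848-140993338, 26.4 kb past the PCDHAC2 start, was called in 5 of 6 lists. It had 3.81-fold and 3.53-fold enrichment in A-Fos Dox cells, 3.81-fold in A-Fos noDox library 1 and no peak in noDox library 2, and 5.66-fold and 9.97-fold in WT cells. Within their own lists these stood at percentiles 36.2 and 25.1 in Dox cells, 14.9 in noDox library 1, and 56.4 and 76.6 in WT cells. Also in this record lay chr5:140996191-140996548 (4.40-fold in Dox library 1 and 5.01-fold in WT library 2) and chr5:140997068-140997338 (5.34-fold and 5.70-fold in WT cells).

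Between the alpha and beta families, a region 9.9 kb before PCDHB1 had 3.47-fold and 11.9-fold enrichment in WT cells (12.7th and 80.6th percentile). Inside the variable alpha block, a region 6.06 kb past the PCDHA4 start had 6.15-fold and 3.85-fold (61.7th and 26th percentile). Of the 13 regions called in 1 list, the highest by percentile were at the PCDHGA1 start, 10.7 kb past the PCDHAC2 start (4.28-fold) and across the edge of TAF7, mostly outside the gene (4.10-fold), all in WT library 2.

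FOSL2, an AP-1 subunit of the Fos family, was not called anywhere in the array or its flanks after A-Fos induction. There were 0 and 0 peaks in A-Fos Dox cells, against 9 and 3 in A-Fos noDox cells, means of 0 ± 0 and 6 ± 4.24 (SD, n = 2 each). The groups did not overlap, and an exact two-sided permutation test gave p = 0.333, the smallest possible. The difference, Dox minus noDox, was -6 peaks, or -3 without noDox library 1 and -9 without noDox library 2. Per 1000 peaks of the list the numbers were 0 and 0 in Dox cells and 0.197 and 0.202 in noDox cells. With the 4 lists cut to the length of the shortest, the difference was -0.5, with an exact permutation p = 1. The Dox lists were the shorter ones, with 1854 and 5274 peaks in all, against 45586 and 14842 in the noDox lists.

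Of 10 FOSL2 regions, 2 were called in both noDox libraries, and neither Dox library called them. This was true of 98.4% of the 10191 FOSL2 regions of both noDox libraries genome-wide, so the count is near the background. The first, chr5:141003983-141004847, lies 37.5 kb past the PCDHAC2 start in the alpha constant record, inside all 15 alpha intervals. It had 33.6-fold and 7.36-fold enrichment (95.9th and 79.5th percentile) in noDox cells. The second, chr5:141520890-141521662, lies in DIAPH1, 7.92 kb past the gamma end, with 30.8-fold and 5.30-fold (95.0th and 62.2nd percentile). Without noDox library 2 the count would be 9. Of the 8 regions of 1 list, 7 were in noDox library 1, with the highest percentile at 11.3 kb before PCDHB1 (6.78-fold), 10.6 kb past the PCDHAC2 start (5.68-fold) and 29.7 kb past it (5.21-fold). No FOSL2 peak of any list lay within 500 bp of a member start, against 0.019% and 0.101% of all genes in the Dox lists and 3.85% and 0.683% in the noDox lists.

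FOXA1 was called at both of these FOSL2 regions in noDox cells and in WT cells and at neither in Dox cells. At the alpha constant record, chr5:141003939-141004528 in the A-Fos lists, there was no peak in either Dox library, against 5.34-fold and 8.90-fold enrichment in noDox cells (43.3rd and 69.0th percentile). The same place had 11.2-fold and 20.3-fold in WT cells (83.3rd and 89.3rd percentile). In DIAPH1, chr5:141521094-141521576, there was again no Dox peak, against 7.55-fold and 10.4-fold in noDox cells (68.0th and 75.6th percentile), with 14.3-fold and 21.6-fold in WT cells (percentiles 88.1 and 89.99). These 2 were all the FOXA1 regions of both noDox libraries in the array and its flanks. Genome-wide, 31.1% of 6012 such regions were called in neither Dox library. Neither factor had a region called in all 4 A-Fos lists or in both Dox lists alone.

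Over the full lists the number of FOXA1 peaks had the same mean with and without induction. It was 2 and 3 in Dox cells, against 3 and 2 in noDox cells, means of 2.5 ± 0.707 each (SD, n = 2 each; exact two-sided permutation test, p = 1). The difference, 0 over the full lists, was -1.5 with the lower 50% of each list left out (exact permutation p = 0.333, the smallest possible), -1.5 with equal list lengths (exact permutation p = 0.667) and 1 inside the array alone (exact permutation p = 0.667), so no direction held across these settings. Dox peaks stood at the 21.1st to 48.6th percentile of their lists and noDox peaks at the 14.9th to 75.6th, ranges that overlap. The region 26.4 kb past the PCDHAC2 start was the one place called in lists of both groups. Dox library 2 had peaks of its own 3.87 kb before PCDHB1 and 41.5 kb before PCDHGA1, at 3.36-fold and 3.56-fold. No FOXA1 peak of an A-Fos list lay within 500 bp of a member start, against 1.04% and 0.967% of all genes in the Dox lists and 0.512% and 0.885% in the noDox lists.

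Because the alpha genes are nested, the 2 regions without Dox peaks count for many members. Within 50 kb or inside the gene, 38 of 53 members had such a FOXA1 region (15 alpha, 22 gamma and PCDHB1), against 8.97% of all genes. All 38 rest on the same 2 regions, which are 2 events and not 38.

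**Figure D5:**
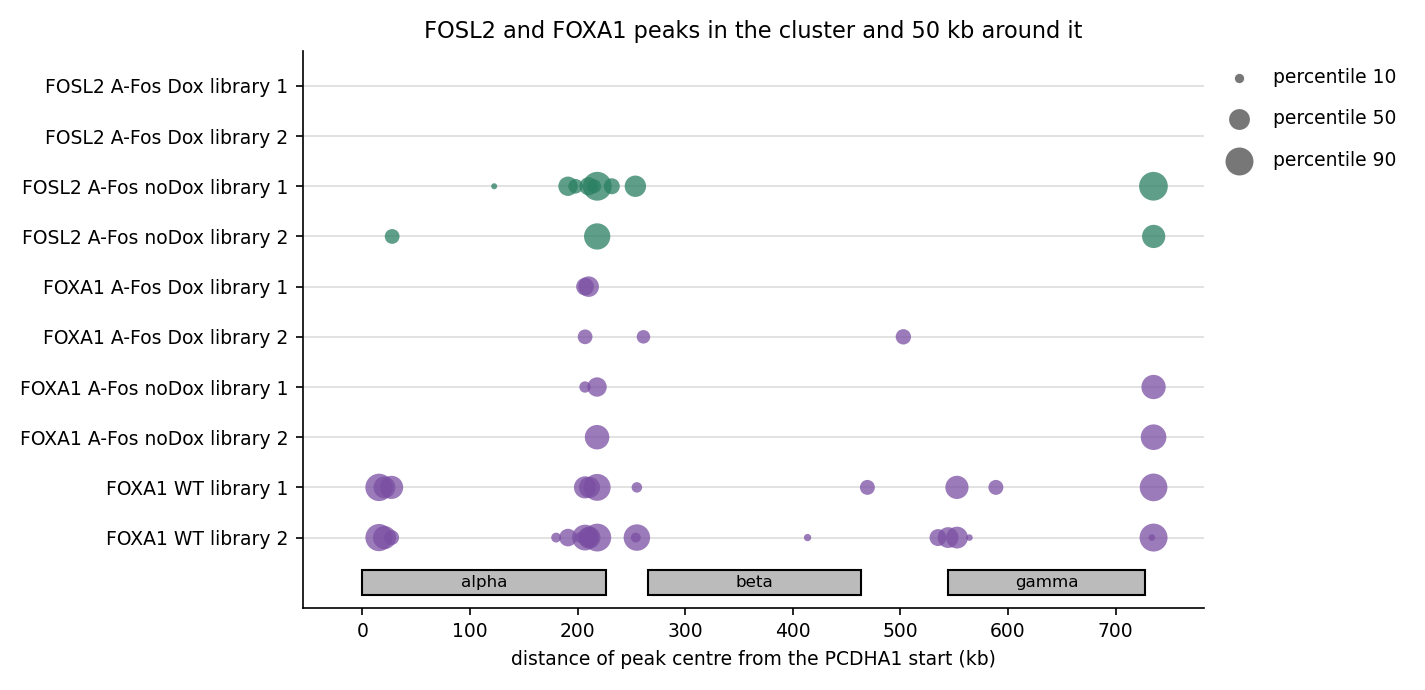
FOSL2 (green) and FOXA1 (purple) peaks of each list in the array and 50 kb on either side, against distance of the peak centre in kb from the PCDHA1 start. Each circle is 1 peak, with an area in proportion to its percentile of enrichment within its own list, and grey bars are the families. The FOSL2 Dox rows are empty, and both factors have noDox peaks at about 218 and 735 kb that the Dox rows lack.

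Uninduced A-Fos cells had fewer FOXA1 peaks here than WT cells, with 3 and 2 against 11 and 19. The means were 2.5 ± 0.707 and 15 ± 5.66 (SD, n = 2 each), a difference of -12.5 peaks with no overlap (exact two-sided permutation test, p = 0.333, the smallest possible). The A-Fos noDox lists were shorter throughout, with 7633 and 13247 peaks, against 49448 and 80318 in WT cells. Per 1000 peaks of the list the array and flanks had 0.393 and 0.151 in noDox cells, against 0.223 and 0.237 in WT cells, and there the groups overlapped and the difference turned to 0.0425 (exact permutation p = 1). With all 4 lists cut to the length of the shortest it was 1.5 peaks (exact permutation p = 0.667).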

How the data were processed

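Groups and replicate numbers came from the sample titles. The members, gene lists and comparisons were chosen with earlier results of these data known. As the columns and their values show, the authors deposited 1 peak list per library, with a fold enrichment (a linear ratio over background), a −log10 q-value and the distance of the summit from the peak start, a position and no score. Per the submitters' processing notes, MACS2, BWA 2.2.1, fastp 0.23.2, deepTools, DRAGEN and SAMtools 1.8 were among the tools and hg38 was the build. Settings and the use of inputs are not given. The 3 inputs were not analysed here. The smallest deposited −log10 q was 1.30 to 1.32.

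Analysis was limited to chromosomes 1 to 22 and X. Peaks of 1 list were merged before cover was summed. A gene was counted as marked when both libraries covered at least 50%. Peaks of several lists sharing at least 1 bp were merged into regions, each counted once, and distances run to the nearest edge. Coordinates are hg38, genes and promoters are from RefSeq tables of GRCh38.p14, the same assembly, and members without a promoter entry were taken as plus strand. Exons were not distinguished. Genes named were the 3 most and 3 least covered members per family and mark, all C-type members and coding neighbours, up to 4 per state of each list, regions of at least 2 lists, and the 3 highest of 1 list per factor. PCDHB9, PCDHA14, the pseudogenes and the 7-letter runs were chosen after values were seen. Library numbers were compared by exact permutation tests. Python 3.11.15, numpy 2.4.6 and pandas 2.3.3 were used, and cover was tested on simulated data without a mismatch in 8000 stretches. The depth behind each list is unknown, so no interval is given. Alternatives were stricter peaks, joined gaps, equal list lengths, other stretches, thresholds and windows, and each library left out.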

Additional observations from a re-analysis of the deposited data

How the results depend on the processing

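Of 92 alternatives, 17 moved a count by over 1.5 times or to or from 0, and 2 turned a difference round. FOXA1 peaks of Dox minus noDox cells, 0 with no direction to keep, ranged from -1.5 to 1 over its 10 alternatives. The 10 members with 50% of the gene under H3K9me3 became 18 with gaps of up to 1 kb joined, 33 at 25%, 0 at 75%, 34 by start stretch and 26 from start to next start. Without 1 library, chosen after the data were seen for the start stretch, the H3K27me3 count was 0 to 2. FOSL2 regions of both noDox libraries and no Dox library numbered 1 inside the array, 4 with 100 kb around it and 2 to 9 without 1 library. Such FOXA1 regions numbered 1 inside the array and 1 with the lower 50% of each list by enrichment left out. WT FOXA1 regions overlapping H3K9me3 numbered 0 by summit, 2 with joined gaps and 2 to 3 without 1 library. FOXA1 peaks of noDox minus WT cells turned from -12.5 to 1.5 with equal list lengths and to 0.0425 per 1000 peaks. The cause of these shifts was not tested. With the replicate number as a block, an exact sign-flip test gave p = 0.5, the smallest possible, for the differences of 37.6 points, -6 FOSL2 peaks and -12.5 FOXA1 peaks, and p = 1 for 0 FOXA1 peaks between Dox and noDox cells. The numbers are not stated to pair libraries. The difference in calls, library 1 minus library 2, correlated between Dox and noDox cells at 0.164 for FOSL2 and 0.0166 for FOXA1. Every region counted was called in at least 1 list, and the lists differ in length. These correlations therefore cannot show whether same-numbered libraries pair. No exact permutation test of 2 libraries against 2 can pass a threshold of 0.05, so the side of that threshold says nothing about stability.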
